A study of Mus musculus with 9 samples.

Results

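The BCL2 family sets the threshold at which a cell dies through its mitochondria, and 10 of its genes were followed here in lung fibroblasts of aged mice after bleomycin. The 10 are the rows of the deposited table named Bcl2, Bcl2l1, Bcl2l2, Mcl1, Bax, Bak1, Bad, Bid, Bcl2l11 and Bbc3. They were chosen by name, with earlier results of these data known. They are 10 of 43346 genes in the table, and all 10 were among the 16877 genes with a mean count of at least 25 that were tested. RNA-Seq libraries were made from Col1a1-GFP mice, in which a fluorescent reporter is driven by the collagen I promoter, so that the cells studied are those in which that promoter was active. The mice are labelled 72 weeks old and described as 18 months old, were male and on an FVB background, and received 1 intratracheal dose of saline (aged sham, n = 4) or bleomycin, a DNA-damaging drug that scars the lung (aged bleo, n = 5). Cells were taken 30 days later, sorted as GFP+, CD45-, CD31- and EpCAM-, and lysed directly. The comparison asks how injury that persists at this time changes the fibroblasts of aged lungs.

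Apoptosis through the mitochondria starts when the effectors BAX and BAK assemble in the outer mitochondrial membrane and let cytochrome c out. The anti-apoptotic proteins BCL2, BCL-XL (encoded by Bcl2l1), BCL-W (Bcl2l2) and MCL1 bind and restrain the effectors. BH3-only proteins such as BAD, BID, BIM (Bcl2l11) and PUMA (Bbc3) sense stress and either occupy the anti-apoptotic proteins or act on the effectors. Activated fibroblasts that escape this death persist in scar tissue, and much of the control of the family lies in phosphorylation and protein turnover, which RNA does not show.

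Each library held 49921946 to 68260600 counted reads, at which 3 reads correspond to at most 0.0604 CPM (counts per 1000000 reads of the TMM-scaled library total). The sort was reflected in the markers. Summed fibroblast markers reached 24544 to 30313 CPM in aged sham and 54438 to 71852 CPM in aged bleo. The list was mixed, with 3 of its 8 genes differentially expressed upward and 2 downward, so the higher sum does not hold for each marker. The endothelial, B cell, and T and NK cell markers each summed to at most 32.0 CPM in any library and the epithelial markers to at most 95.7 CPM. Smooth muscle and pericyte markers summed to 1923 to 5468 CPM. Leukocyte markers were not absent. The library aged bleo 4 had 739 CPM of pan-leukocyte, 965 CPM of neutrophil and 1831 CPM of macrophage markers, against 148 to 221, 93.1 to 159 and 544 to 874 CPM in the other aged bleo libraries. In the aged sham libraries these lists summed to 123 to 463, 180 to 1078 and 242 to 619 CPM. Between the groups, 4 of the 8 macrophage markers and 1 of the 8 pan-leukocyte markers were differentially expressed upward. No neutrophil marker was differentially expressed, and the 4 B cell markers all were in the downward direction. All 8 cell cycle genes were differentially expressed upward and all 8 immediate early genes, which respond to tissue dissociation, downward. Their sums were 14.6 to 65.5 against 44.7 to 334 CPM and 15607 to 20422 against 5386 to 12256 CPM in aged sham and aged bleo, with aged bleo 4 at the highest cell cycle and the lowest immediate early sum. The part of cell composition and dissociation in the results below was not tested, and in bulk samples fewer cells of a type and less RNA per cell cannot be told apart.

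A gene is said to have risen or fallen when its Benjamini-Hochberg adjusted p-value (FDR) in the edgeR quasi-likelihood test was under 0.10, and to be differentially expressed when its fold change was also over 1.5. Of the 10 members, 4 rose (Bak1, Bax, Bcl2l11 and Bcl2l1), 2 fell (Mcl1 and Bcl2), and 4 did not pass (Bcl2l2, Bad, Bid and Bbc3). Among all genes tested, 23.4% rose and 21.4% fell, 44.8% in either direction. Bak1 alone was differentially expressed, as 12.3% of all genes were in the upward direction (23.8% in either), and no member was in the downward direction in this edgeR fit with TMM factors, as 11.5% were. Mcl1 was by edgeR with RLE factors (log2 fold change -0.59), by DESeq2 and by limma-trend on log2 CPM. Both effectors rose, and all 6 pro-apoptotic members had a positive estimate, against 2 of the 4 anti-apoptotic members and 50.7% of all genes tested. The median log2 fold change was 0.85 for the effectors, 0.35 for the BH3-only genes and -0.17 for the anti-apoptotic genes, beside 0.0064 over all genes. The counts and medians describe these 10 genes, which are too few to set apart from the rest of the transcriptome.

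**Figure D1:**
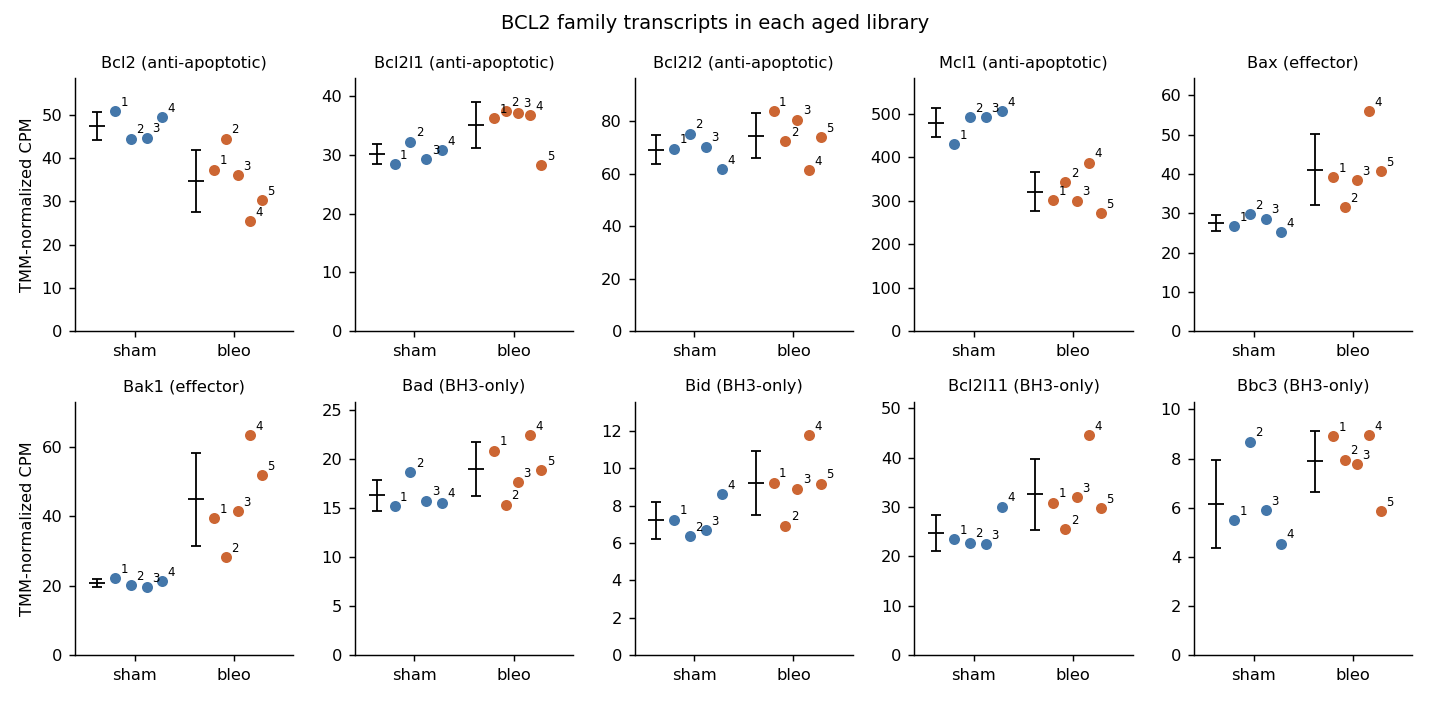
TMM-normalized CPM of each BCL2 family member in the 4 aged sham (blue) and 5 aged bleo (orange) libraries, each point numbered by its library, with the group mean and SD as a bar to the left of the points. All aged bleo points lie below all aged sham points for Mcl1 and above them for Bax and Bak1, and aged bleo 4 is the highest aged bleo library for each of the 6 pro-apoptotic genes.

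Mcl1 was by far the most abundant member and the one that fell most. MCL1 is a short-lived anti-apoptotic protein that must be made continually, and its gene lies on chromosome 3 at 95658721 to 95663176 (GRCm38, plus strand). The aged sham libraries 1 to 4 had 431, 492, 492 and 506 CPM, and the aged bleo libraries 1 to 5 had 302, 342, 301, 388 and 271 CPM. Every aged bleo library thus lay below every aged sham library, a separation seen in the downward direction in 16.1% of all genes. The mean fell from 480 ± 33.6 CPM (SD, n = 4) to 321 ± 45.2 CPM (SD, n = 5), a log2 fold change of -0.58 ± 0.11 (SE, edgeR FDR = 0.00522), and on the linear scale it dropped by 33.2%. The value of -0.582 lies just short of the fold change threshold, whose log2 value is 0.585, and Mcl1 was past it in 3 of the 9 fits that left out a library (-0.63 without aged sham 1, -0.61 without aged bleo 2, -0.67 without aged bleo 4). Its FDR was at most 0.0224 in those 9 fits. The aged bleo library nearest to the aged sham values, aged bleo 4, was the one with the most leukocyte markers.

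Bcl2, the founding member of the family, fell less firmly. Its gene spans chromosome 1 from 106538178 to 106714274 (minus strand). Aged sham libraries 1 to 4 had 50.8, 44.4, 44.7 and 49.4 CPM, and aged bleo libraries 1 to 5 had 37.3, 44.5, 36.1, 25.5 and 30.3 CPM. Of the 5 aged bleo libraries 4 lay below every aged sham library, while aged bleo 2 sat just above the lowest of them. The log2 fold change was -0.45 ± 0.14 (SE, edgeR FDR = 0.0392), so Bcl2 decreased by 26.6%, and the FDR stayed between 0.00892 and 0.0918 with each library left out. Bcl2 shares 6.09% of its exonic bases with the antisense gene D630008O14Rik, which had 108 to 251 reads per library against at least 1657 for Bcl2.

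Bcl2l1, which encodes BCL-XL, moved the other way by a small amount (chromosome 2, 152780668 to 152831728, minus strand). It was at 28.4, 32.2, 29.3 and 30.8 CPM in aged sham 1 to 4 and at 36.2, 37.4, 37.2, 36.7 and 28.2 CPM in aged bleo 1 to 5. Aged bleo 1 to 4 exceeded every aged sham value, and aged bleo 5 fell short of each of them. The log2 fold change was 0.22 ± 0.09 (SE, edgeR FDR = 0.0950). Without aged bleo 5 the FDR was 0.0117, and with any one of the other 8 libraries left out it was 0.110 or more and up to 0.204 (without aged sham 1), so that the rise passed the test in 1 of the 9 fits. It was also lost under RLE factors (FDR = 0.105), limma-trend on log2 CPM (FDR = 0.109), no filter (FDR = 0.126) and without both aged bleo 4 and aged sham 4 (FDR = 0.227). Reads are counted per gene, so the long and short splice forms of Bcl2l1, like those of Mcl1 and Bcl2l11, are summed.

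Bcl2l2, encoding BCL-W, did not pass the test (chromosome 14, 54883377 to 54888234, plus strand). Aged sham libraries ranged from 61.8 to 75.2 CPM and aged bleo libraries from 61.5 to 83.8 CPM, with a log2 fold change of 0.11 ± 0.10 (SE, edgeR FDR = 0.431). The level is uncertain because Gm20521 lies on the same strand and shares 13.3% of the exonic bases of Bcl2l2.

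The effectors gave the firmest rises. Bak1, whose protein sits in the outer mitochondrial membrane, lies on chromosome 17 at 27019810 to 27029009 (minus strand). It was at 22.2, 20.1, 19.5 and 21.3 CPM in aged sham 1 to 4 and at 39.5, 28.1, 41.5, 63.4 and 51.9 CPM in aged bleo 1 to 5. The aged sham libraries lay close together and the aged bleo libraries far apart, all above the aged sham libraries, a separation seen in the upward direction in 16.1% of all genes. The mean went from 20.8 ± 1.22 CPM (SD, n = 4) to 44.9 ± 13.3 CPM (SD, n = 5), a 2.16-fold rise (log2 fold change 1.11 ± 0.20, SE, edgeR FDR = 0.00408). Bak1 remained differentially expressed with every library left out in turn, with a log2 fold change of 0.95 without aged bleo 4 and 1.24 without aged bleo 2. Ggnbp1 on the opposite strand shares 18.2% of the exonic bases of Bak1 and had 517 to 1050 reads per library, against 1000 to 4650 for Bak1. Ggnbp1 rose as well (log2 fold change 0.28, edgeR FDR = 0.0893).

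Bax encodes the effector that moves from the cytosol to the mitochondria (chromosome 7, 45461695 to 45466898, minus strand). Its CPM was 26.7, 29.7, 28.6 and 25.2 in aged sham 1 to 4 and 39.2, 31.5, 38.3, 55.9 and 40.7 in aged bleo 1 to 5. The groups did not overlap, and aged bleo 4 stood above the other aged bleo libraries. Bax rose by 49.3% (log2 fold change 0.58 ± 0.15, SE, edgeR FDR = 0.0162), again at the edge of the fold change threshold. In 5 of the 9 fits that left out a library it was past that threshold, at most at 0.66 (without aged bleo 2), and without aged bleo 4 the log2 fold change was 0.43 (FDR = 0.00922). Its FDR was at most 0.0488 in the 9 fits. Bax shares 12.2% of its exonic bases with Gm45808 on the same strand, a gene without a row in the deposited counts.

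**Figure D2:**
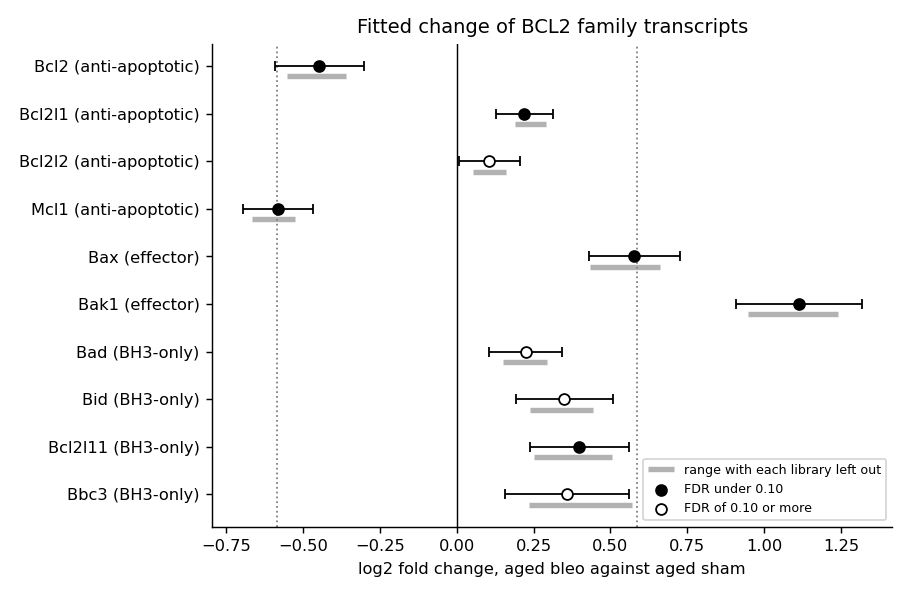
Log2 fold change of each member in aged bleo against aged sham (points, with the SE as a bar), filled where the FDR is under 0.10, the range over the 9 fits that left out 1 library as a grey band, and the fold change of 1.5 as dotted lines. Bak1 at 1.11 lies past the dotted line in every such fit, Mcl1 (-0.58) and Bax (0.58) lie at the line, and the BH3-only genes lie to the right of 0 between 0.22 and 0.40.

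Of the 4 BH3-only genes 1 passed the test. Bcl2l11, whose protein BIM binds every anti-apoptotic member, was at 23.4, 22.7, 22.5 and 30.1 CPM in aged sham 1 to 4 and at 30.8, 25.5, 32.0, 44.6 and 29.7 CPM in aged bleo 1 to 5 (chromosome 2, 128126038 to 128162547, plus strand). Aged sham 4 stood above the other aged sham libraries and above 2 of the aged bleo libraries. The log2 fold change was 0.40 ± 0.16 (SE, edgeR FDR = 0.0821). Only the fits without aged sham 4 (FDR = 0.0557) or without aged bleo 2 (FDR = 0.0370) kept it under 0.10, and without aged bleo 4 it was 0.25 (FDR = 0.120), while the fit without both aged bleo 4 and aged sham 4 gave 0.35 (FDR = 0.0281). It did not pass with library sizes only (FDR = 0.103) or, by a narrow margin, with log2(FPKM + 1).

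Bid, Bbc3 and Bad had positive estimates that did not pass. Bid, which links death receptors to mitochondria once caspase-8 has cut it, had a mean of 7.22 ± 0.987 CPM in aged sham (SD, n = 4) and 9.20 ± 1.73 CPM in aged bleo (SD, n = 5), with 4 aged bleo libraries above all aged sham libraries (log2 fold change 0.35, SE 0.16, edgeR FDR = 0.110). It passed in the fits without aged sham 4 (FDR = 0.0814) and without aged bleo 2 (FDR = 0.0336). Bbc3, the p53 target that encodes PUMA, was among the lowest at 4.53 to 8.68 CPM in aged sham and 5.85 to 8.96 CPM in aged bleo (log2 fold change 0.36, SE 0.20, edgeR FDR = 0.193), and passed without aged sham 2, its highest aged sham library (0.57, FDR = 0.0425). Bad, whose protein is held inactive by phosphorylation and 14-3-3 binding, had 15.2, 18.6, 15.7 and 15.5 CPM in aged sham 1 to 4 and 20.8, 15.3, 17.6, 22.4 and 18.8 CPM in aged bleo 1 to 5. Its log2 fold change was 0.22 ± 0.12 (SE, edgeR FDR = 0.169), with 3 aged bleo libraries above all aged sham libraries, and it passed in the fit without aged bleo 2 (0.29, FDR = 0.0523). Bad shares 20.5% of its exonic bases with Gpr137 on the opposite strand, which rose (log2 fold change 0.50). Gpr137 had 929 to 2189 reads per library, against 770 to 1643 for Bad. Bid shares 17.7% with Bcl2l13, whose log2 fold change was -0.04 and did not pass. Bcl2l13 had 1678 to 2539 reads per library, against 343 to 864 for Bid.

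The 6 pro-apoptotic genes largely shared their extremes among the aged bleo libraries. All 6 were highest in aged bleo 4, and 5 of them (all but Bbc3) were lowest in aged bleo 2, where Bcl2 was highest. Bcl2 was lowest in aged bleo 4. These are the library with the most leukocyte markers and cell cycle RNA and the library with the least cell cycle RNA (44.7 CPM) among the aged bleo libraries. Outside the 10 members, Bmf and Bok had the same extremes among the aged bleo libraries, and Bik had the opposite ones. The share of all genes with such extremes is not given here, so the pattern is not shown to be particular to these members. Without aged bleo 4 the log2 fold changes were 0.95 for Bak1, 0.43 for Bax, -0.67 for Mcl1 and -0.36 for Bcl2, each with an FDR of at most 0.0380. Bcl2l11 (0.25, FDR = 0.120) and Bcl2l1 (0.20, FDR = 0.156) did not pass in that fit, which left 2 members that rose in place of 4.

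Levels of different genes were compared per length, with the deposited FPKM (fragments per kilobase scaled to a total per library). The total that the FPKM imply was 2.27 to 2.42 times the counted reads of a library, and cancels in ratios within a library. In aged sham, Mcl1 had 57.8 ± 4.06 FPKM (SD, n = 4), followed by Bax at 13.3, Bcl2l2 at 6.52, Bak1 at 3.62, Bad at 3.40, Bcl2l1 at 2.76, Bcl2 at 2.17, Bbc3 and Bcl2l11 both at 1.29 and Bid at 0.853 FPKM. The neighbours Bak1 and Bad, and Bbc3 and Bcl2l11, overlapped over the libraries. In aged bleo, Mcl1 at 39.7 ± 6.39 FPKM (SD, n = 5) and Bax at 20.4 FPKM were again first, and Bak1 at 8.07 stood beside Bcl2l2 at 7.18 FPKM with overlapping ranges. Bad and Bcl2l1 followed at 4.08 and 3.30 FPKM with overlapping ranges. Bcl2l11, Bbc3, Bcl2 and Bid, at 1.75 to 1.12 FPKM, each overlapped with the next. The place of Bax rests on its length in the table, 869 bases, against 1576 exonic bases in GENCODE M21, with which it would be at 7.34 and 11.3 FPKM. On those lengths Bax and Bcl2l2 overlap in aged sham, and Bax and Bak1 overlap in aged bleo. Bad, with 2007 bases in the table and 2558 in GENCODE M21, would be at 2.67 and 3.20 FPKM. That is just below Bcl2l1 at 2.76 and 3.30 FPKM, with overlapping ranges in both groups.

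Summed by role, the anti-apoptotic members went from 69.3 ± 4.15 FPKM (SD, n = 4) to 51.8 ± 6.05 FPKM (SD, n = 5) and the effectors from 16.9 ± 1.10 to 28.5 ± 7.63 FPKM, and neither sum overlapped between the groups. With GENCODE M21 lengths the effector sum was 11.0 and 19.3 FPKM, again without overlap. The BH3-only sum was 6.83 ± 0.630 FPKM in aged sham and 8.65 ± 1.53 FPKM in aged bleo, and overlapped. Most of the anti-apoptotic sum was Mcl1, with 83.4% ± 1.25 (SD) in aged sham and 76.4% ± 3.36 (SD) in aged bleo. Without Mcl1 the sum was 11.4 ± 0.649 FPKM in aged sham and 12.1 ± 0.936 FPKM in aged bleo, with overlap.

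The ratio of anti-apoptotic to pro-apoptotic FPKM was 2.74, 2.80, 2.98 and 3.17 in aged sham 1 to 4 and 1.42, 1.97, 1.45, 1.18 and 1.20 in aged bleo 1 to 5. The lowest aged sham library was thus above the highest aged bleo library. With GENCODE M21 lengths the means were 4.15 and 2.02, again without overlap (lowest aged sham 3.87, highest aged bleo 2.78). The ratio of Mcl1 to Bak1 went from 16.1 ± 1.83 (SD, n = 4) to 5.31 ± 1.85 (SD, n = 5), and that of Bcl2 to Bax from 0.164 ± 0.0223 to 0.0856 ± 0.0332, or from 0.298 to 0.155 with GENCODE M21 lengths. These ratios describe RNA, combine genes already compared one by one, and were given no test.

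**Figure D3:**
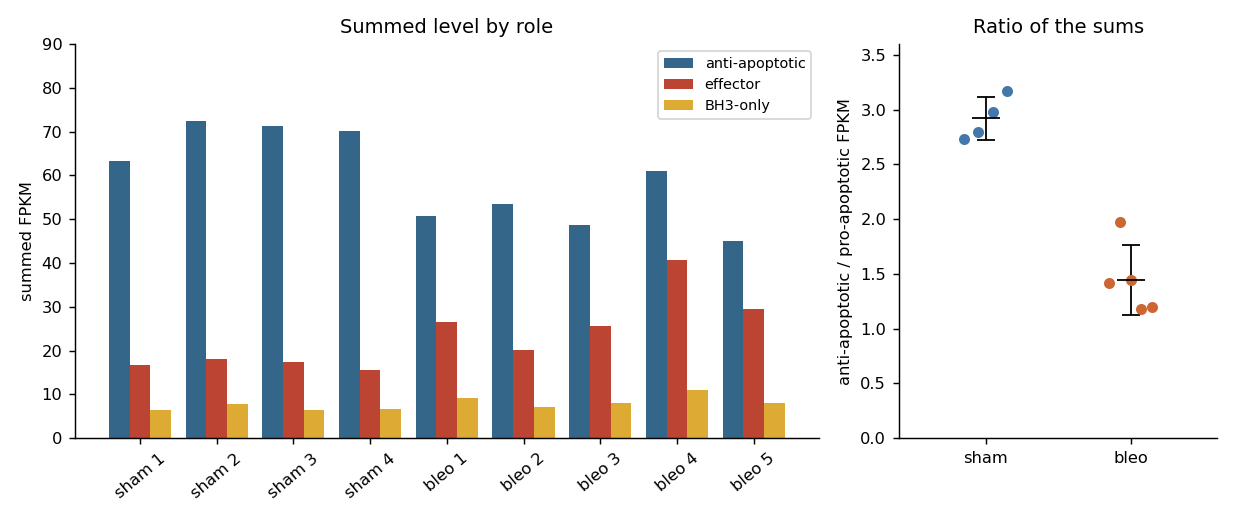
Left, the deposited FPKM summed over the 4 anti-apoptotic, 2 effector and 4 BH3-only members in each library. Right, the ratio of anti-apoptotic to pro-apoptotic FPKM with the group mean and SD, 2.74 to 3.17 in aged sham and 1.18 to 1.97 in aged bleo.

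The promoters of Bcl2 and Mcl1, which fell, and of Bax, which rose, are shown so that regulatory sequence of members that moved in opposite directions can be read side by side. The windows are the 250 bases before the RefSeq start on the gene's strand, read 5′ to 3′ from the RefSeq table for GRCm38.p6, at chr1:106714291-106714540 (minus strand) for Bcl2, chr3:95658471-95658720 (plus strand) for Mcl1 and chr7:45466899-45467148 (minus strand) for Bax. Capitals mark the GC box GGGCGG on either strand, the element bound by SP1 factors.
Bcl2: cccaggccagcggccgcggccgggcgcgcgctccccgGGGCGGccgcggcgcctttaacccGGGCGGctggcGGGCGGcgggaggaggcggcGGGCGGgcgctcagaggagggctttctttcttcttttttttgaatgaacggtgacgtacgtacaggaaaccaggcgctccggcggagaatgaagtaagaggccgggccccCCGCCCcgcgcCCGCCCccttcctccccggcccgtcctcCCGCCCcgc
Mcl1: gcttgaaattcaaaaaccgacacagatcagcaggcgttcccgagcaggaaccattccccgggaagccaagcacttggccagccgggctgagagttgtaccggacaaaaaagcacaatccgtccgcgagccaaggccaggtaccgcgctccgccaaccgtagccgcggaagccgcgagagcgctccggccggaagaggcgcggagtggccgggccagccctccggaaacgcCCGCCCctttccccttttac
Bax: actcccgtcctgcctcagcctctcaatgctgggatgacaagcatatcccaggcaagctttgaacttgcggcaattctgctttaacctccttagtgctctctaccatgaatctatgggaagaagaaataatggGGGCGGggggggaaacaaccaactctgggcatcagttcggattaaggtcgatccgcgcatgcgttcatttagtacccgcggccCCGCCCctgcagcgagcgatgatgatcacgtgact
Bcl2 held 7 GC boxes in a window of 74.8% GC, Bax 2 in a window of 54.0% GC, and Mcl1 1 in a window of 64.4% GC. Of 32851 windows of the same length over all genes, 32.7% held at least 1. A window was found for all 10 members, 16 windows in all, of which 11 held a GC box, and the median GC content was 64.6% for the members' windows and 52.4% for all windows. The windows of Bak1 and Bcl2l1 had no GC box. That of Bak1 lay wholly within annotated exons, as did some of those of Bcl2l1. The NFAT core GGAAA, the motif of the factor family that includes NFATC1, was in 11 of the 16 windows and in 55.6% of all windows on either strand, and the CCAAT box, CCAAT, in 4 of the 16 and in 33.8% of all windows. The p53 half-site was in the window of Bax, 201 bases before the start (-201), and in 7.13% of all windows. None of the members' windows held TGACGTCA (CRE), TGANTCA (AP-1) or TTTCCCGC (E2F), which occurred in 1.55%, 6.75% and 0.895% of all windows. These matches describe letters in the windows and say nothing of binding.

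Around the family, 96 genes in 8 lists of the same pathways were read from the same fit. Of the 88 tested, 27 rose, 16 fell and 45 did not pass, and 10 were differentially expressed upward and 5 downward, with a median log2 fold change of 0.061. Over all genes 23.4% rose, 21.4% fell, 12.3% were differentially expressed upward and 11.5% downward, and the counts of each list below are to be read against these shares. Without aged bleo 4 the number differentially expressed upward was 6, with Bok, Bcl2a1a, Vdac1 and Rps6ka1 no longer among them.

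Among the other members of the family, 3 of 10 tested rose, 2 fell and 5 did not pass. Bmf, a BH3-only gene, had 12.3, 17.7, 9.09 and 10.8 CPM in aged sham 1 to 4 and 39.3, 24.9, 32.4, 40.3 and 34.7 CPM in aged bleo 1 to 5. All aged bleo libraries lay above all aged sham libraries, and the rise (log2 fold change 1.46 ± 0.21, SE, edgeR FDR = 0.00126) was larger in its estimate than that of Bak1. Bok, an effector relative, rose from 27.5 ± 2.12 to 41.9 ± 7.78 CPM (0.61, FDR = 0.00891), and by 0.50 without aged bleo 4 (FDR = 0.00888), the lowest of the 9 fits that left out a library. Bcl2a1a, an anti-apoptotic gene of blood cells with near-identical copies, was at 0.517 and 1.53 CPM (1.57, FDR = 0.0763), with aged bleo 4 at 4.24 CPM, and did not pass without that library (0.71, FDR = 0.117), nor without aged sham 1, 3 or 4. The BH3-only gene Bik fell at a low level (1.91 to 0.810 CPM, -1.23, FDR = 0.0226). Bnip3l, a mitophagy receptor and the most abundant of this list, did not pass (-0.15, FDR = 0.126). Hrk, a BH3-only gene known from neurons, was singled out after its values were seen. It had 29, 41, 17 and 39 reads in aged sham 1 to 4 and 1, 4, 1, 0 and 3 in aged bleo 1 to 5, which kept it below the filter, and with no filter its log2 fold change was -4.07 (edgeR FDR = 0.000977). Such a fitted value at 0 to 4 reads depends on the prior count. Of the 7 listed genes below the filter that were fitted without it, Bcl2l14 was past the thresholds in the other direction (FDR = 0.0296, at most 37 reads) and the other 5 were not.

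Downstream of the effectors, 5 of 11 genes of mitochondrial release and the apoptosome rose and 2 fell. The channel gene Vdac1, the most abundant of the list, rose from 94.0 ± 5.14 to 149.7 ± 36.3 CPM (0.67, FDR = 0.0146) and Cycs, encoding cytochrome c, from 15.8 ± 0.844 to 22.5 ± 5.79 CPM (0.51, FDR = 0.0455). Apaf1, the scaffold of the apoptosome, had an estimate of 0.25 (FDR = 0.202), and Casp9, the caspase it activates, fell by 0.19 on the log2 scale (FDR = 0.0418). Of 8 caspase and DNA fragmentation genes 5 rose and 3 did not pass. Casp6, an executioner caspase, rose from 9.85 ± 0.853 to 19.0 ± 3.86 CPM without overlap (0.95 ± 0.15, SE, edgeR FDR = 0.00217), and Casp12, the most abundant of the list, did not pass (-0.21, FDR = 0.227).

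Of 5 inhibitors of apoptosis 1 rose, 1 fell and 3 did not pass. Birc3, encoding cIAP2, fell from 121.6 ± 12.0 to 70.1 ± 17.9 CPM without overlap (-0.80, FDR = 0.00909). Birc5, encoding survivin, which also acts in mitosis, rose from 1.07 ± 0.393 to 11.7 ± 10.3 CPM (3.45, FDR = 0.00823). The 8 of 8 cell cycle genes rose as well, and a link between these rises was not tested. Xiap, the direct caspase inhibitor, was at 96.6 and 96.8 CPM (0.0027, FDR = 0.985), and Birc2 (-0.43, FDR = 0.124) and Birc6 (0.04, FDR = 0.805) did not pass either. In the death receptor pathway 5 of 14 tested genes rose and 2 fell, with Ripk3 (0.81, FDR = 0.0349) and Tnfrsf10b (0.72, FDR = 0.0184) differentially expressed upward and Ripk1, the kinase that joins survival and death signals, downward (-0.71 ± 0.09, SE, FDR = 0.000497). Tnfrsf12a, the most abundant, did not pass (0.05, FDR = 0.744).

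**Figure D4:**
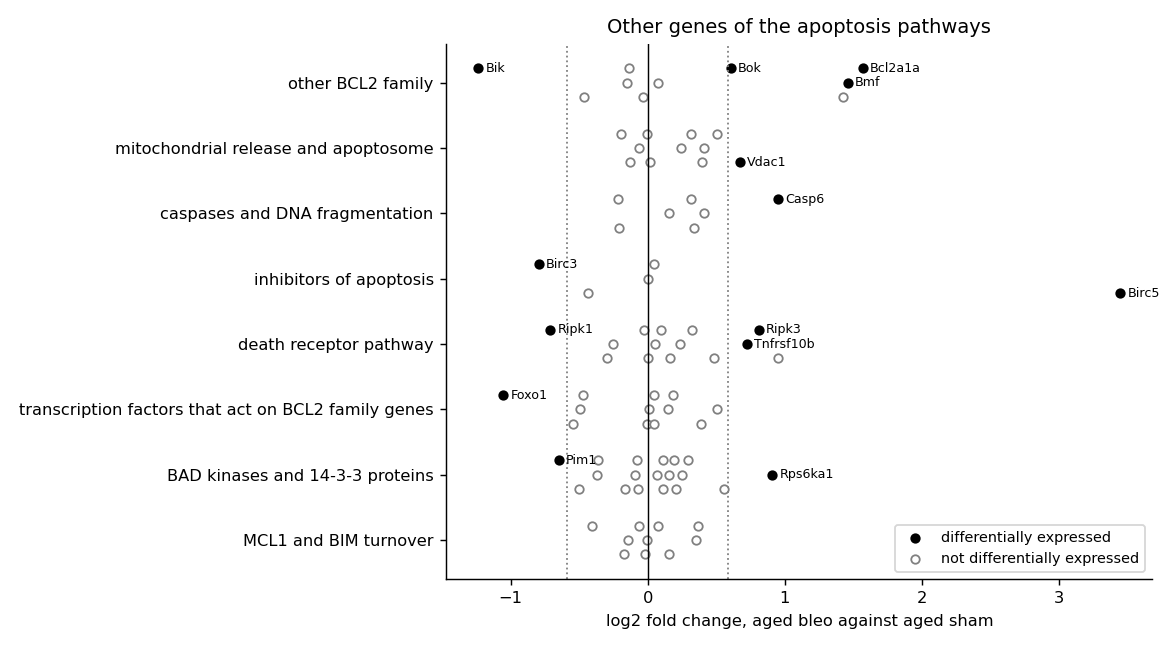
Log2 fold changes of the tested genes of the 8 pathway lists in aged bleo against aged sham, with 1 gene left out, filled and named where differentially expressed, with the fold change of 1.5 as dotted lines. The largest estimates are Birc5 at 3.45, Bcl2a1a at 1.57 and Bmf at 1.46 upward and Bik at -1.23 and Foxo1 at -1.05 downward.

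Regulators of the family were described last. Of 12 tested transcription factors 2 rose and 4 fell. Foxo1, a factor known to act on Bcl2l11 and Bbc3, fell from 116.5 ± 12.5 to 56.1 ± 17.6 CPM (-1.05, FDR = 0.00618), whereas its relative Foxo3 rose (0.39, FDR = 0.00519). Atf4, the most abundant of the list, fell by 0.55 on the log2 scale (FDR = 0.00431). Trp53, encoding p53, was at 56.5 and 56.4 CPM (-0.0020) and Nfatc1 at 40.5 and 40.8 CPM (0.0094), and neither passed.

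BAD is a substrate of the kinase PIM1, which the study examined. In human lung fibroblasts it reported less BAD phosphorylation with a PIM1 inhibitor and more with PIM1 overexpression. The RNA levels given here do not measure that phosphorylation. The study reported higher Pim1 in aged than in young uninjured fibroblasts, a different comparison from aged bleo against aged sham. No young mice are among the libraries used here. Pim1 had 184, 200.2, 182 and 230.3 CPM in aged sham 1 to 4 and 111, 138, 152, 154 and 79.9 CPM in aged bleo 1 to 5. The groups did not overlap and Pim1 was lower in aged bleo (log2 fold change -0.65 ± 0.18, SE, edgeR FDR = 0.0245), with an FDR of at most 0.0694 and a log2 fold change between -0.52 and -0.74 over the 9 fits that left out a library. Without aged sham 4 or aged bleo 5 it lay short of the fold change threshold. Of the 18 genes of the list of BAD kinases and 14-3-3 proteins 4 rose, 3 fell and 11 did not pass. The 14-3-3 gene Ywhae, the most abundant, had an estimate of 0.25 (FDR = 0.189), and Rps6ka1 was differentially expressed at an FDR of 0.0988 with its highest value in aged bleo 4 and a group mean of 7.46 CPM. It passed in 3 of the 9 fits that left out a library, and had a log2 fold change of 0.48 without aged bleo 4 (FDR = 0.177). Of 10 genes of MCL1 and BIM turnover 2 rose, 2 fell and 6 did not pass. Gsk3b, a kinase that marks MCL1 for removal, rose (0.37, FDR = 0.00520), Fbxw7, a ubiquitin ligase adaptor for MCL1, rose (0.35, FDR = 0.0165), Btrc, another such adaptor, fell (-0.41, FDR = 0.00515), and Mapk3, the most abundant, did not pass (-0.06, FDR = 0.658).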

How the data were processed

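Libraries of sorted lung fibroblasts were grouped as aged sham or aged bleo by their sample labels, and all 9 were used. The submitters' processing notes name bcl2fastq, STAR 2.5.2b, Subread featureCounts and the build mm10 (GRCm38). The authors deposited 1 table with raw read counts per gene and FPKM values, in which FPKM are scaled to the gene length given there. Libraries were made with a poly-A TruSeq kit, and whether counting used strand is not given in the sources used here, so reads of overlapping genes may be shared.

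TMM factors were applied, and the edgeR 4.0.16 quasi-likelihood test was run in R 4.3.3 on genes reaching a mean count of 25, without covariates and with Benjamini-Hochberg adjustment over 16877 genes. The test was run on simulated data first. Thresholds were an FDR of 0.10 and a fold change of 1.5. CPM are TMM-normalized. Alternatives used DESeq2 1.42.0, limma 3.58.1, RLE factors, other filters and libraries left out. The labels list separate samples, of 4 and 5 mice per the design. None of the 16 pairs of libraries within a group agreed within sampling noise.

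The 10 members and the pathway and marker lists were chosen with earlier results of these data known. Every member is named, as are at most 3 differentially expressed genes per direction and the gene with the highest FPKM of each pathway list, and Pim1. Hrk and the other pathway genes named were chosen after their values were seen. RefSeq promoter windows were matched by symbol. Floors cover counting error only. The values of 1 gene of the pathway lists are not reported here, although the counts include it.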

Additional observations from a re-analysis of the deposited data

Results flagged for a closer look

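In 3 of 20 combinations of a member and a group, 1 library stood apart from the rest of its group by a gap that was large against the group's range (Dixon's test at the 95% level), where chance gives about 1 in 20 such groups. Bcl2l1 was at 28.2 CPM in aged bleo 5, with the nearest aged bleo library at 36.2 CPM. Bad was at 18.6 CPM in aged sham 2, with the nearest aged sham library at 15.7 CPM. Bcl2l11 was at 30.1 CPM in aged sham 4, with the nearest aged sham library at 23.4 CPM. Aged sham 4 was also the aged sham library with the most neutrophil markers (1078 CPM), and the part of those cells in its Bcl2l11 level was not tested.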

How the results depend on the processing

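The estimate of each of the 10 members kept its sign under every alternative run. Mcl1 was past the fold change threshold under RLE factors, DESeq2, limma-trend on log2 CPM and without both aged bleo 4 and aged sham 4 (chosen after seeing the data), so that 1 member was differentially expressed downward there, and Bax was past it with library sizes only, limma-trend on log2(FPKM + 0.1) and no filter, which gave 2 upward. Without a fold change threshold 4 members, 27 pathway genes and 3944 of all genes were higher and 2, 16 and 3609 lower. With log2(FPKM + 1), 960 of all genes were higher and 825 lower, and 6 and 3 of the pathway genes. Without both aged bleo 4 and aged sham 4, 6 pathway genes were differentially expressed upward. With each library left out, differential expression counted 1 to 2 members upward and 0 to 1 downward, 6 to 13 and 4 to 6 pathway genes, and 1876 to 2314 and 1639 to 2283 of all genes, and an FDR under 0.10 alone counted 2 to 5 members higher and 2 lower. The correlation of deviations between same-numbered libraries was 0.09, 0.06 and -0.13 for numbers 1, 2 and 3, and 0.33 for number 4. Aged sham 4 and aged bleo 4 thus deviated together to some degree, and each had the most neutrophil markers of its group. A replicate block gave 1 member, 8 pathway genes and 1822 of all genes upward and 0, 4 and 1714 downward, with 5 members rising and 1 falling (Bcl2 at FDR = 0.108). The cause of these differences was not tested. Among the members, Bbc3 and Bid had the fewest reads, with as few as 225 and 343 in a library.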
